A study of Mus musculus with 11 samples.

Results

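Hmox1, Nqo1, Gclc, Gclm, Txnrd1, Srxn1, Prdx1, Gsr, Sod2 and Cat are antioxidant and cytoprotective genes grouped here by their known link to the transcription factor NRF2. These 10 genes were taken by symbol from the 22068 gene symbols measured in 11 RNA libraries, and all 10 symbols were found. RNA came from myeloid cells of subcutaneous mouse tumours, taken 4 days after the tumours received 15 Gy of local radiation and pulled down on magnetic beads by their surface CD11b. The cells, all on a C57BL/6 background, were wild type (WT, 3 libraries), TLR9-/- (TLR9KO, 4 libraries) or STAT3-/- by MxCre and Stat3flox alleles (STAT3KO, 4 libraries). MxCre places the Cre recombinase under an interferon-inducible promoter, so deletion depends on where and how fully that promoter was active. All groups were irradiated and no unirradiated group was analysed here, so the values compare genotypes and do not measure a response to radiation. The labels do not name the tumour line, the age of the mice or how many mice gave each library, so p-values measure the spread between these libraries, which may be technical.

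NRF2, encoded by Nfe2l2, is held at low levels by KEAP1, an adaptor that brings it to a CUL3 ubiquitin ligase. Oxidants and electrophiles modify KEAP1, NRF2 accumulates, pairs with small MAF proteins and binds antioxidant response elements (AREs), while BACH1 competes for the same elements and is removed by heme. In macrophages this pathway is best known for heme breakdown through HMOX1 and for glutathione and thioredoxin metabolism. Sod2 is also a well-known NF-kB target, and Cat has many regulators besides NRF2, so the list is not a single regulon.

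Levels are in RPKM, reads scaled by transcript length and by library size, so genes can be set side by side. Stat3 stood at 15.7 to 19.7 RPKM in STAT3KO against 70.7 to 76.1 RPKM in WT, and Tlr9 at 3.53 to 7.7 RPKM in TLR9KO against 20.5 to 41.6 RPKM in WT, as the labels have it. Itgam, which encodes CD11b, was 293.9 to 312.8 RPKM in WT, 177.2 to 328.1 in TLR9KO and 190.5 to 228.2 in STAT3KO, so this marker of the pull-down was lower in every STAT3KO library than in any WT library; its part in the results was not tested. Depth, estimated from the steps of low microRNA values, was 30000000 to 53450000 reads per library. At that depth the lowest value of Nqo1 stood for about 26 reads and the lowest value of every other gene of the list for at least 386.

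Promoter windows, from 250 bases before to 50 bases after the RefSeq start site (GRCm38.p6, while the files use mm9), were available for 7 of the 10 genes. The ARE core TGACNNNGC, searched on both strands, was found in windows of 4 of them, Gclm, Txnrd1, Srxn1 and Prdx1, and in none for Nqo1, Sod2 and Cat. Over all genes with a window, 13.99% had a match in at least 1 window. Txnrd1 has 3 windows and matched in 1. The 4 windows with a match are shown because 3 of these genes are among those whose RNA differed between the groups and Txnrd1 is not. Sequences are 5′ to 3′ on the strand of the gene, with the match in capitals; all 4 matches lie on the opposite strand, so the capitals read as the reverse complement of the core.
Gclm, chr3:122245307-122245606, plus strand, match 134 to 126 bases before the start: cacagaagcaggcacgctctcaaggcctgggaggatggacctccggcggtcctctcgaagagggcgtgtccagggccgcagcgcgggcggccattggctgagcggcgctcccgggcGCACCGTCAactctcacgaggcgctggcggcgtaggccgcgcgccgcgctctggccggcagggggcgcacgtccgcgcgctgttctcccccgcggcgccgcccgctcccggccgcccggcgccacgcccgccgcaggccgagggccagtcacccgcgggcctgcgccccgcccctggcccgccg
Prdx1, chr4:116685349-116685648, plus strand, match 133 to 125 bases before the start: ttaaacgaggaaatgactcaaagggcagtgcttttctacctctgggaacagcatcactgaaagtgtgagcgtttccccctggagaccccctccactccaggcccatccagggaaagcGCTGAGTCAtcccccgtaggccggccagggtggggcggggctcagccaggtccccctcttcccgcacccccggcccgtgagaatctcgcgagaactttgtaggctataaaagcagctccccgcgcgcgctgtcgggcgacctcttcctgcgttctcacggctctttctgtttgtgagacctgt
Srxn1, chr2:152105274-152105573, plus strand, match 28 to 36 bases after the start: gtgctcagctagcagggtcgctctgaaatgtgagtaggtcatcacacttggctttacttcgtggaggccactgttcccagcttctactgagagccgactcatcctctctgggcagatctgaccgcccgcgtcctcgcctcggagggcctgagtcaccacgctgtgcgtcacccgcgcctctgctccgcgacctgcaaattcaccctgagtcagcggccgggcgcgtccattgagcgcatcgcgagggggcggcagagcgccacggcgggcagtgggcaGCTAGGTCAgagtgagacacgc
Txnrd1, chr10:82858956-82859255, plus strand, match 92 to 84 bases before the start: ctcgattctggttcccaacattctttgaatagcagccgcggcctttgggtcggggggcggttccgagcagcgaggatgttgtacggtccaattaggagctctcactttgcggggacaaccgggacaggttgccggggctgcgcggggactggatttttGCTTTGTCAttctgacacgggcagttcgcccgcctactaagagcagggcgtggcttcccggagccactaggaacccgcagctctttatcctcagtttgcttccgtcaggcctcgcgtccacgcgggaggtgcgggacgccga
The AP-1 site TGAGTCA, also searched on both strands, lies inside the Prdx1 match and once more in that window, and at 2 places in the Srxn1 window away from the ARE match. It was found in 5.95% of all genes with a window. Matches of this length describe the letters of the window and do not show binding. A window without a match does not show that a gene lacks an ARE, since sequence outside the window was not searched.

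The 10 genes spanned a wide range of levels. Hmox1 stood above at least 99.1% of the tested genes in each group, with a mean of 948.5 ± 489.9 RPKM in WT (SD, n = 3). Prdx1 followed at 303.9 ± 64.1 RPKM. Txnrd1, Srxn1, Cat, Sod2, Gsr and Gclm had WT means from 40.4 down to 11.3 RPKM, in that order. In WT the ranges of Txnrd1 and Srxn1 overlapped, as did those of Cat, Sod2, Gsr and Gclm with their neighbours, while Srxn1 and Cat did not overlap. Gclc, at 4.16 ± 0.64 RPKM, and Nqo1, at 0.68 ± 0.15 RPKM, were the lowest in each group. In STAT3KO Gclm moved from the eighth to the sixth place, and Sod2 from the sixth to the eighth.

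**Figure D1:**
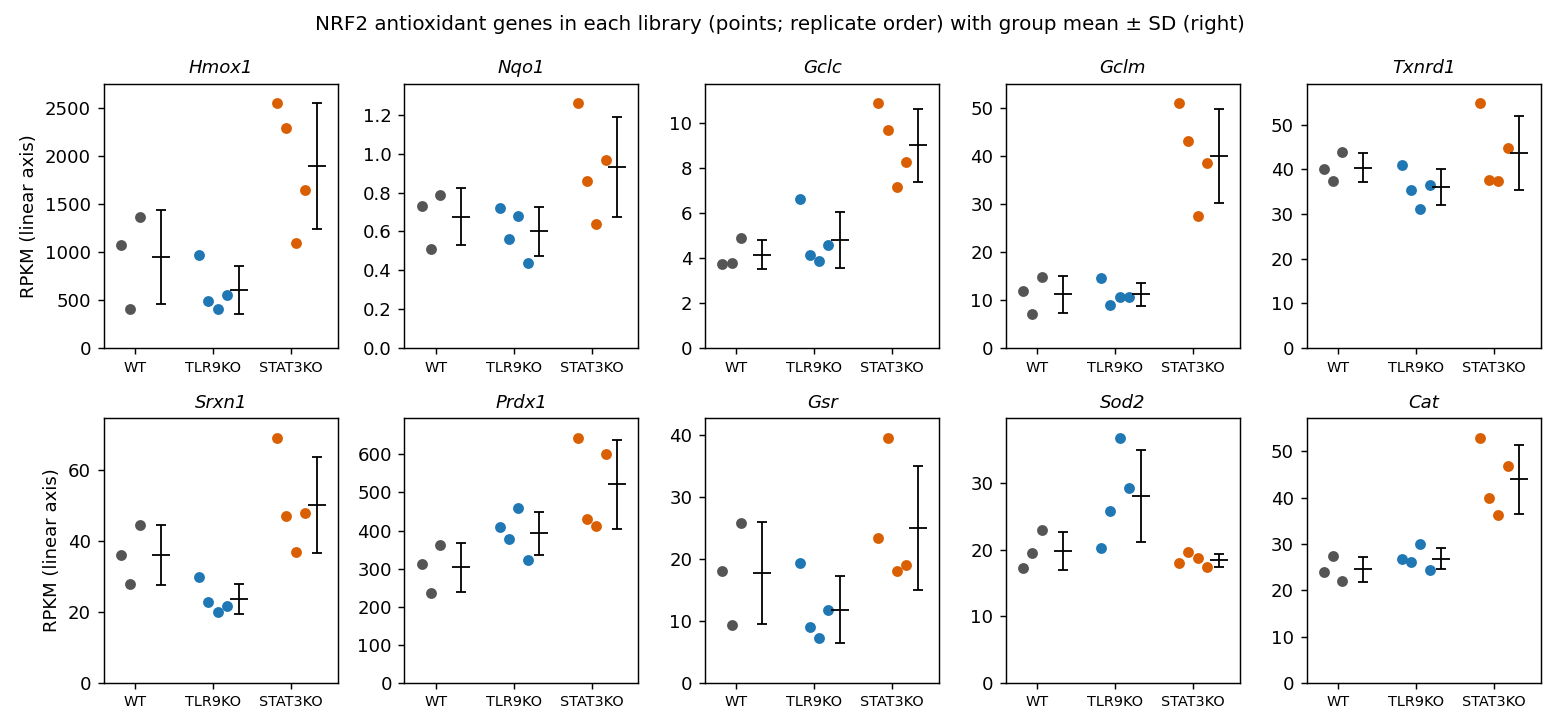
RPKM (linear axes from 0) of the 10 genes in each library, with points for the libraries in replicate order and, to their right, the group mean with its SD (3 WT, 4 TLR9KO and 4 STAT3KO libraries). The 4 STAT3KO libraries lie above all WT and TLR9KO libraries for Gclc, Gclm and Cat, while Sod2 has its highest mean in TLR9KO.

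Markers of several cell types differed between the groups, here by the limma test at an adjusted p of 0.05, which 44% of all tested genes passed in STAT3KO minus WT, 30.6% in TLR9KO minus WT and 22.8% between the knockouts. The summed level of 14 macrophage markers was 6491 to 8966 RPKM in WT, 7914 to 13484 in TLR9KO and 13050 to 18355 RPKM in STAT3KO, and of the 13 tested 8 rose and 2 fell in STAT3KO minus WT, none passed in TLR9KO minus WT by limma (3 had an unadjusted p under 0.05) and 3 were higher and 1 lower in STAT3KO minus TLR9KO. Within each group, the library that was highest for most of the antioxidant genes (WT replicate 3, TLR9KO replicate 1 and STAT3KO replicate 1) had the lowest macrophage sum of its group. The markers did not all follow the sum, whose largest part was Lyz2 in every library. Cd68, named after its values were seen, was the highest of its group in these same libraries, at 1118.8, 1089.5 and 1513.2 RPKM. The part of macrophage content in the differences was not tested, and in bulk RNA more cells of a type and more RNA per cell cannot be told apart. The sum of 12 erythroid markers was 69.1 to 233.1 RPKM in WT, 7.96 to 18.2 in TLR9KO and 11.4 to 76.3 RPKM in STAT3KO, and 5 of the 6 tested fell in each knockout against WT. In each group the library with the lowest erythroid sum also had the lowest Hmox1 (WT replicate 2, TLR9KO replicate 3 and STAT3KO replicate 3). The highest erythroid sum and the highest Hmox1 fell on the same library only in WT. In TLR9KO most of the erythroid sum was Tfrc, named after its values were seen, at 7.19 RPKM in replicate 3. The part of erythroid RNA in this order was not tested. Of 7 fibroblast markers, 6 had a WT mean under 1 RPKM, and the sum was 1.7 to 3.71 RPKM in WT, 8.58 to 37.7 in TLR9KO and 12.2 to 26.6 RPKM in STAT3KO, and the 3 tested rose in each knockout against WT. Melanocyte markers, 7 in number, summed to 453.8 to 1446 RPKM in WT, 488 to 1394 in TLR9KO and 834 to 1282 RPKM in STAT3KO. None of the 7 passed in any comparison by limma, nor had any an unadjusted p under 0.05. The library with the lowest melanocyte sum of its group also had the lowest Hmox1 (WT replicate 2, TLR9KO replicate 3 and STAT3KO replicate 3), as for the erythroid sum. These libraries were the lowest of their group for 7, 5 and 9 of the 10 antioxidant genes. The highest melanocyte sum and the highest Hmox1 fell on the same library only in STAT3KO. The part of melanocyte RNA in this order was not tested. The sum of 8 dendritic cell markers was 141.3 to 224.1 RPKM in WT, 82 to 156.1 in TLR9KO and 30.3 to 70.6 RPKM in STAT3KO. Most of that sum was Itgax, named after its values were seen, at 127.1 to 190.6 RPKM in WT and 21.8 to 52.2 RPKM in STAT3KO. Of the 4 dendritic markers tested, 1 fell and 0 rose in STAT3KO minus WT, 0 passed by limma in TLR9KO minus WT (1 had an unadjusted p under 0.05), and 1 was higher and 1 lower in STAT3KO minus TLR9KO.

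STAT3KO against WT compares the cells pulled down from these groups, whose cell type markers also differed as given above. The glutathione synthesis genes Gclm and Gclc, the hydrogen peroxide enzyme Cat and the peroxiredoxin Prdx1 were higher in STAT3KO, by 1.72 to 3.55 times in mean RPKM. Hmox1 had a log2 difference within the range of these genes, with a larger standard error, and did not pass. Txnrd1 and Sod2 were at nearly the same mean level in both groups.

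Gclm encodes the modifier subunit of glutamate-cysteine ligase, the enzyme of the rate-limiting step of glutathione synthesis. It was 11.9, 7.16 and 14.8 RPKM in the WT libraries and 51.1, 43.2, 27.6 and 38.7 RPKM in STAT3KO. The groups did not overlap, with 27.6 RPKM as the lowest STAT3KO and 14.8 RPKM as the highest WT level. The log2 difference, on the log2(RPKM + 1) scale used for all differences below and followed by its standard error, was 1.76 ± 0.25 (adjusted p = 0.00032 by limma with Benjamini-Hochberg adjustment). Gclc, the catalytic subunit of the same enzyme, was 3.76, 3.81 and 4.90 RPKM in WT and 10.9, 9.73, 7.17 and 8.28 RPKM in STAT3KO. It too did not overlap, with a log2 difference of 0.95 ± 0.17 (limma adjusted p = 0.00126). The ratio of Gclm to Gclc, both per length, was 1.88 to 3.17 in WT, 2.17 to 2.73 in TLR9KO and 3.85 to 4.69 in STAT3KO, so the modifier subunit was the higher of the pair in every library, and the STAT3KO ratios lay above all others.

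Cat encodes catalase, which breaks down hydrogen peroxide in peroxisomes. Its levels were 23.9, 27.5 and 22.1 RPKM in WT and 52.9, 39.9, 36.2 and 46.8 RPKM in STAT3KO, again without overlap (log2 difference 0.81 ± 0.13, limma adjusted p = 0.000682). Prdx1, a cytosolic peroxidase that uses thioredoxin, was 312.8, 235.9 and 363.1 RPKM in WT and 643.2, 429.1, 413.2 and 601.2 RPKM in STAT3KO. The groups did not overlap (0.77 ± 0.20, limma adjusted p = 0.00915), but Prdx1 did not pass once libraries were corrected for GC content and length, where the difference was 0.43 (limma adjusted p = 0.12).

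Hmox1 encodes heme oxygenase 1, which splits heme into biliverdin, iron and carbon monoxide. It was 1075, 408 and 1363 RPKM in WT and 2546, 2286, 1089 and 1644 RPKM in STAT3KO, where the lowest library lay between 2 WT libraries. The log2 difference of 1.09 ± 0.43 did not pass (limma adjusted p = 0.062; 95% interval 0.14 to 2.05). It passed without WT replicate 3 (0.0341), without STAT3KO replicate 3 (0.0347) and without TLR9KO replicate 1 (0.0456), a library that enters only the estimate of the spread. Without WT replicate 2, the lowest WT library, it was 0.57 (limma adjusted p = 0.257), and over all libraries left out singly it ran from 0.57 to 1.44.

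Srxn1, sulfiredoxin, which restores over-oxidised peroxiredoxins, was 36.0, 27.8 and 44.6 RPKM in WT and 69.1, 47.0, 37.0 and 47.9 RPKM in STAT3KO (log2 difference 0.45 ± 0.21, limma adjusted p = 0.105), and passed only without STAT3KO replicate 3 (0.59, limma adjusted p = 0.0452); with a library left out it ran from 0.28 to 0.62. Gsr, glutathione reductase, was 18.1, 9.27 and 25.8 RPKM in WT and 23.3, 39.5, 18.0 and 19.0 RPKM in STAT3KO (0.51 ± 0.38, limma adjusted p = 0.305). Both genes overlapped between the groups. The high Gsr value of STAT3KO replicate 2 stood beside the highest summed level of 12 neutrophil markers. That sum was 629.7 RPKM, against 58.7 to 249.4 RPKM in the other 10 libraries. WT replicate 3 and TLR9KO replicate 1, the highest of their groups for Gsr, also had the highest neutrophil sums there (179.7 and 249.4 RPKM). Most of both sums was Mmp8, named after its values were seen, at 110.4 and 206.8 RPKM. The other markers were divided. S100a8 and S100a9 were the highest of the group in WT replicate 3, where Retnlg was the lowest. In TLR9KO replicate 1 Csf3r (16.1 RPKM) and Retnlg (0.92 RPKM) were the lowest of the group. The lowest Gsr value and the lowest neutrophil sum fell on the same library only in WT, in replicate 2. The part of neutrophil content in the Gsr values was not tested. The Gsr difference was 0.27 without STAT3KO replicate 2, 0.13 without WT replicate 2 and 0.82 without WT replicate 3, and none of these passed (limma adjusted p = 0.588, 0.803 and 0.134). Txnrd1, the cytosolic thioredoxin reductase, was 40.0, 37.3 and 43.8 RPKM in WT and 54.8, 37.6, 37.3 and 44.8 RPKM in STAT3KO (0.10 ± 0.14, limma adjusted p = 0.605; 95% interval -0.21 to 0.40), a difference that changed sign with median-ratio scaling (-0.02) and without STAT3KO replicate 1 (-0.02). Sod2, the mitochondrial superoxide dismutase, was 17.2, 19.5 and 22.9 RPKM in WT and 18.0, 19.7, 18.7 and 17.4 RPKM in STAT3KO (-0.09 ± 0.17, limma adjusted p = 0.672; 95% interval -0.46 to 0.27). For these last genes every STAT3KO range crossed the WT range.

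Nqo1, a quinone reductase and a standard NRF2 readout in other tissues, averaged 0.742 RPKM over the 11 libraries and fell under the filter of a mean of 1 RPKM. It was 0.73, 0.51 and 0.79 RPKM in WT, 0.72, 0.56, 0.68 and 0.44 RPKM in TLR9KO and 1.26, 0.86, 0.64 and 0.97 RPKM in STAT3KO, and all 3 groups overlapped. Without a filter its log2 differences were 0.20 ± 0.11 for STAT3KO against WT, -0.07 ± 0.11 for TLR9KO against WT and 0.27 ± 0.10 between the knockouts, and none passed (limma adjusted p = 0.222, 0.771 and 0.119). The other 9 genes were above the filter in every library.

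Of these 9 tested genes, 4 rose and 0 fell in STAT3KO, and 5 did not pass. Over all 10557 tested genes 44% were called, 29.2% higher and 14.8% lower, so the share of the list called in either direction, 44.4%, was near that of all genes. The groups did not overlap for the same 4 genes, beside 47.7% of all tested genes, 30.8% higher and 16.9% lower. The higher share of all genes depended on the scaling, with 3083 higher and 1565 lower as deposited, 2336 and 2207 with median-ratio scaling and 1988 and 2065 with the GC and length correction. The median log2 difference of the 9 genes was 0.77, and of all tested genes 0.095. The calls of Gclm, Gclc and Cat held under all 21 alternatives run, with log2 differences no lower than 1.49, 0.85 and 0.65.

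**Figure D2:**
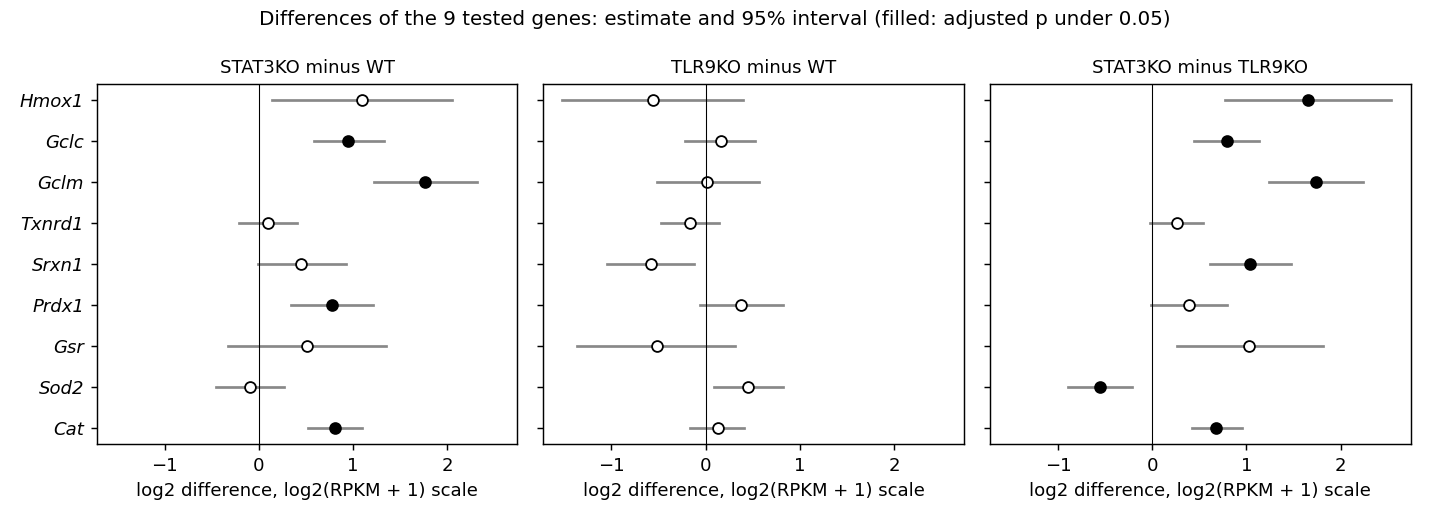
Log2 differences of the 9 tested genes in the 3 comparisons (x axis, on the log2(RPKM + 1) scale) with 95% intervals of the limma fit; filled points passed an adjusted p of 0.05. Gclm has the highest estimate in STAT3KO minus WT (1.76) and STAT3KO minus TLR9KO (1.74), and no point is filled in TLR9KO minus WT.

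TLR9KO against WT compares the cells pulled down without and with the CpG DNA receptor TLR9, whose cell type markers also differed in part. None of the 9 tested genes passed by limma, and 2 of them, Srxn1 and Sod2, had an unadjusted p under 0.05. In the same comparison 30.6% of all tested genes were called, 20% higher and 10.6% lower (2107 and 1122 genes). These counts were 1780 and 1504 with median-ratio scaling and 947 and 804 with the GC and length correction. No gene of the list had groups that did not overlap, beside 36.1% of all tested genes. The median log2 difference of the 9 genes was 0.02, and of all tested genes 0.036.

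Srxn1 was 29.8, 22.9, 20 and 21.7 RPKM in TLR9KO, mostly below the WT libraries, with 1 TLR9KO library above the lowest WT value. Its log2 difference was -0.58 ± 0.21 (limma adjusted p = 0.0572), and it passed with median-ratio scaling (-0.64, 0.0382), with array weights (-0.70, 0.0172) and without WT replicate 2 (-0.75, 0.0266), TLR9KO replicate 1 (-0.70, 0.0302), STAT3KO replicate 1 (0.0333) or STAT3KO replicate 3 (0.0449). Sod2 was 20.2, 25.9, 36.8 and 29.3 RPKM in TLR9KO, where only replicate 1 lay within the WT range. The log2 difference of Sod2 was 0.45 ± 0.17 (limma adjusted p = 0.0586), and it passed without TLR9KO replicate 1 (0.60, limma adjusted p = 0.00853), with array weights (0.50, 0.0117) and with the replicate number as a block (0.0456), while the GC and length correction brought it to 0.22 (limma adjusted p = 0.496).

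Hmox1 was 969, 492, 406 and 549 RPKM in TLR9KO (log2 difference -0.56 ± 0.43, limma adjusted p = 0.354) and Gsr 19.4, 8.98, 7.25 and 11.7 RPKM (-0.52 ± 0.38, limma adjusted p = 0.321). In both genes replicate 1 was the highest TLR9KO library and the groups overlapped. Both passed only with array weights, Hmox1 at -0.96 (limma adjusted p = 0.0427) and Gsr at -0.79 (limma adjusted p = 0.04). With a library left out, Hmox1 ran from -0.21 (without WT replicate 3) to -1.08 (without WT replicate 2), and Gsr from -0.21 to -0.90 for the same libraries. Prdx1 was 409.3, 377.7, 459.8 and 323.3 RPKM (0.38 ± 0.20, limma adjusted p = 0.17), a difference that became -0.03 when corrected for GC and length. Gclc (0.16 ± 0.17), Gclm (0.02 ± 0.25), Txnrd1 (-0.16 ± 0.14) and Cat (0.13 ± 0.13) had 95% intervals of -0.22 to 0.53, -0.52 to 0.57, -0.47 to 0.14 and -0.16 to 0.41, and the sign of Gclm was negative with median-ratio scaling (-0.03) and under the correction for GC and length (-0.23). Their TLR9KO levels were 3.89 to 6.64, 8.99 to 14.6, 31.1 to 41.0 and 24.4 to 30.0 RPKM, overlapping WT in each case.

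STAT3KO against TLR9KO sets the knockouts side by side without WT in the difference. Of the 9 tested genes 5 were higher in STAT3KO, Hmox1, Gclc, Gclm, Srxn1 and Cat, and Sod2 was lower. In that comparison 22.8% of all tested genes were called, 13.4% higher and 9.46% lower (1410 and 999 genes; 1008 and 1194 with median-ratio scaling). The groups did not overlap for the same 6 genes, beside 27% of all tested genes, 16.4% higher and 10.6% lower. The median log2 difference of the 9 genes was 0.79, and of all tested genes 0.065. The 4 STAT3KO libraries are the same ones as in STAT3KO minus WT, so the values of these comparisons are not independent.

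Hmox1 had means of 1891.4 ± 655.5 RPKM in STAT3KO and 603.9 ± 250.3 RPKM in TLR9KO (SD, n = 4 each), a log2 difference of 1.65 ± 0.40 (limma adjusted p = 0.0148). The lowest STAT3KO library, at 1089 RPKM, was above the highest TLR9KO library, at 969 RPKM. Srxn1 was 50.2 ± 13.5 against 23.6 ± 4.28 RPKM (1.04 ± 0.20, limma adjusted p = 0.00468), Gclm 40.1 ± 9.79 against 11.2 ± 2.42 RPKM (1.74 ± 0.23, limma adjusted p = 0.000747), Gclc 9.02 ± 1.63 against 4.82 ± 1.25 RPKM (0.79 ± 0.16, limma adjusted p = 0.00611) and Cat 44.0 ± 7.40 against 26.8 ± 2.34 RPKM (0.68 ± 0.12, limma adjusted p = 0.00341). The lowest STAT3KO library lay above the highest TLR9KO library for these 5 genes, and their calls held under all 21 alternatives.

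Sod2 was lower in STAT3KO than in TLR9KO, at 18.4 ± 1.01 against 28.0 ± 6.95 RPKM (-0.55 ± 0.15, limma adjusted p = 0.0264), with no overlap but a TLR9KO replicate 1 close to the highest STAT3KO library. The call was lost without TLR9KO replicate 2 (0.05), TLR9KO replicate 4 (0.0706), STAT3KO replicate 1 (0.0625) or STAT3KO replicate 4 (0.0679), or under the correction for GC and length (-0.39, limma adjusted p = 0.169). Gsr did not pass (1.03 ± 0.35, limma adjusted p = 0.0556), though it did without WT replicate 2 (0.0335), WT replicate 3 (0.0477) or TLR9KO replicate 1 (0.0233), at differences of 1.03 to 1.29, and also in a fit of the 2 knockouts alone (0.0436) and with array weights (0.00894). Prdx1 (0.39 ± 0.18, limma adjusted p = 0.144) and Txnrd1 (0.26 ± 0.13, limma adjusted p = 0.164) did not pass either, and their intervals ran from -0.01 to 0.80 and from -0.02 to 0.54. With array weights they passed, at 0.61 (0.0104) and 0.35 (0.0319).

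Within each group, the same libraries tended to be high or low for most of the genes. WT replicate 3 was the highest WT library for 9 of the 10 genes and WT replicate 2 the lowest for 7. In TLR9KO replicate 1 was the highest for 7 genes, and in STAT3KO replicate 1 the highest for 8 and replicate 3 the lowest for 9. Sod2 and Cat stood outside this order in part, with Cat lowest in WT replicate 3 and Sod2 lowest in TLR9KO replicate 1. The 10 values of a library are therefore not independent of each other.

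**Figure D3:**
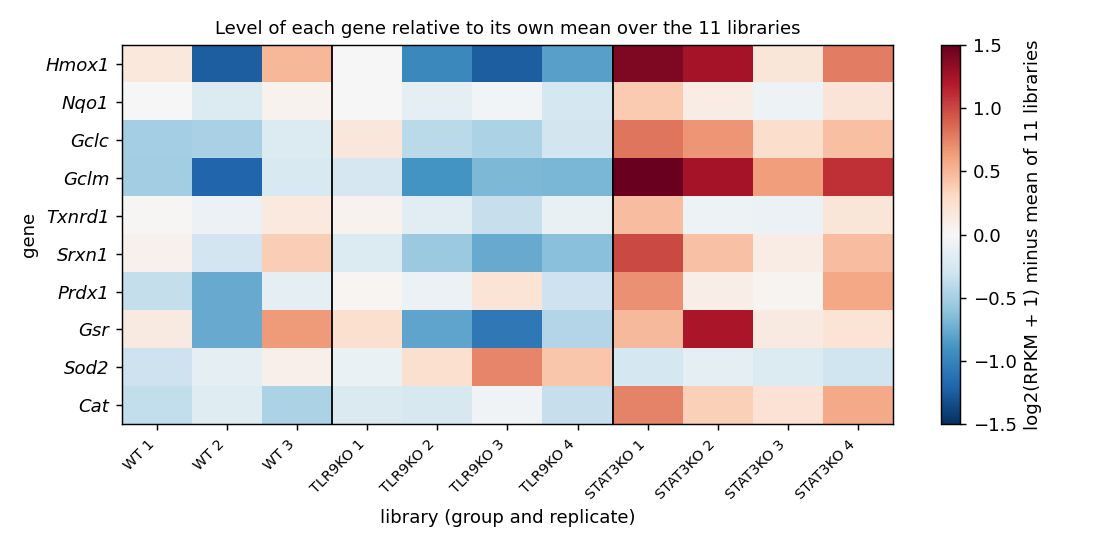
Level of each of the 10 genes in each library as log2(RPKM + 1) minus the mean of that gene over the 11 libraries (colour), with vertical lines between WT, TLR9KO and STAT3KO. STAT3KO replicate 1 is the highest STAT3KO library for 8 genes and replicate 3 the lowest for 9, and Sod2 is the row whose high values lie in TLR9KO.

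The regulators of NRF2 were described next, from a list of 10 genes, all of them tested. Nfe2l2 itself was at 50.4 ± 18.0 RPKM in WT, 55.9 ± 6.05 in TLR9KO and 51.4 ± 8.47 in STAT3KO. Its log2 differences were 0.07 ± 0.20 for STAT3KO against WT, 0.20 ± 0.20 for TLR9KO against WT and -0.13 ± 0.18 between the knockouts, none of which passed (limma adjusted p = 0.801, 0.479 and 0.645). The difference of TLR9KO from WT passed without WT replicate 2 (0.47, limma adjusted p = 0.0339). Keap1 did not pass in any comparison either, at 32.0 ± 2.85, 28.1 ± 2.74 and 30.5 ± 2.8 RPKM in WT, TLR9KO and STAT3KO (limma adjusted p = 0.637, 0.203 and 0.401 in the same order of comparisons), and its sign changed with the GC and length correction. RNA levels do not measure NRF2 protein, which is the step KEAP1 acts on.

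In STAT3KO minus WT 3 regulators rose and 2 fell, 50% of the list beside 44% of all tested genes, with a list median of 0.08 beside 0.095 over all genes. Maff, a small MAF partner, fell from 18.6 ± 2.95 to 8.14 ± 2.06 RPKM (a difference of -1.12 ± 0.19, limma adjusted p = 0.00081). Bach1, the repressor at AREs, fell from 26.6 ± 8.11 to 18.2 ± 4.14 RPKM with overlapping groups (-0.51 ± 0.19, limma adjusted p = 0.0476), a call kept in 6 of 21 alternatives. Of the libraries left out singly, only WT replicate 1 and STAT3KO replicate 3 kept it, and without WT replicate 2 it was -0.28 (limma adjusted p = 0.193). Sqstm1, the autophagy adaptor p62 that binds KEAP1, rose from 292.0 ± 77 to 414.1 ± 52.9 RPKM (0.53 ± 0.18, limma adjusted p = 0.0357), a call kept in 11 of 21 alternatives. It was lost without WT replicate 1 (0.0669), WT replicate 2 (0.32, limma adjusted p = 0.146), STAT3KO replicate 1 (0.0903), STAT3KO replicate 2 (0.0687) or STAT3KO replicate 4 (0.0508). Rbx1 (0.52 ± 0.08) and Cul3 (0.45 ± 0.12), subunits of the ubiquitin ligase, rose. Rbx1 was 0.23 when corrected for GC and length (limma adjusted p = 0.0326). Cul3 was lost without WT replicate 1 (0.37, limma adjusted p = 0.0561), with median-ratio scaling (0.0511) and under the correction for GC and length (0.23, limma adjusted p = 0.109). In TLR9KO minus WT the same subunits were the 2 that passed (20% of the list beside 30.6% of all tested genes), Rbx1 at 0.43 ± 0.08 and Cul3 at 0.62 ± 0.12, and both were lost with the GC and length correction (0.07 and 0.17). In STAT3KO minus TLR9KO 3 of the 10 passed, 30% beside 22.8% of all tested genes. There Sqstm1 was higher (0.82 ± 0.17, limma adjusted p = 0.00726) and Maff (-0.67 ± 0.17) and Bach1 (-0.57 ± 0.18) lower, where Maff was lost without TLR9KO replicate 4 (0.0533) and Bach1 without any 1 of the 4 TLR9KO libraries or of STAT3KO replicates 1, 2 and 4 (0.0577 to 0.097).

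Other NRF2 targets went in both directions. Of 25 listed genes 24 were tested, and Gpx2, with group means of 0.247, 0.045 and 0.075 RPKM in WT, TLR9KO and STAT3KO, was not. In STAT3KO minus WT 8 rose and 4 fell, 50% of those tested beside 44% of all tested genes, with a median of 0.17 beside 0.095. The biliverdin reductases Blvrb and Blvra, which act on the product of heme oxygenase, rose from 65.1 ± 12.8 to 141.2 ± 12.5 RPKM (a difference of 1.12 ± 0.17, limma adjusted p = 0.000577) and from 40.0 ± 5.99 to 67.6 ± 0.954 RPKM (0.75 ± 0.14, limma adjusted p = 0.00142). Txn1, thioredoxin, rose from 100.6 ± 1.98 to 206.6 ± 41.1 RPKM (1.01 ± 0.19), and the carbonyl reductase Cbr1 from 7.95 ± 0.677 to 16.0 ± 2.69 RPKM (0.92 ± 0.15). Corrected for GC and length, the differences of Txn1 and Blvra were 0.52 and 0.32, and both still passed (limma adjusted p = 0.0269 and 0.0411).

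In TLR9KO minus WT 4 of the 24 rose and 4 fell, 33.3% beside 30.6% of all tested genes, with a median of -0.15 beside 0.036. Txn1 was 198.2 ± 51.7 RPKM in TLR9KO (0.94 ± 0.19, limma adjusted p = 0.00411) and Cbr1 13.6 ± 2.44 RPKM (0.70 ± 0.15, limma adjusted p = 0.006). Txn1 was 0.59 when corrected for GC and length (limma adjusted p = 0.0316). The pentose phosphate enzymes Pgd and Tkt, which serve NADPH supply and sugar exchange, fell from 218.9 ± 20.4 to 149.8 ± 5.94 RPKM (-0.54 ± 0.09, limma adjusted p = 0.00216) and from 217.4 ± 19.0 to 150.6 ± 18.6 RPKM (-0.53 ± 0.12, limma adjusted p = 0.0073).

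In STAT3KO minus TLR9KO 8 of the 24 were higher and 1 lower, 37.5% beside 22.8% of all tested genes, with a median of 0.29 beside 0.065. The 4 with the smallest p were Slc48a1, Ftl1, Fth1 and Blvrb. The heme transporter Slc48a1 was 125.6 ± 23.3 against 74.6 ± 5.06 RPKM (0.73 ± 0.16, limma adjusted p = 0.00956). The ferritin chains Ftl1 (0.77 ± 0.19, limma adjusted p = 0.0137) and Fth1 (0.97 ± 0.24, limma adjusted p = 0.0159) averaged 9257 and 10125 RPKM in STAT3KO and 5450 and 5132 RPKM in TLR9KO. Without a filter on low values neither passed (limma adjusted p = 0.285 and 0.203), and Ftl1 did not with the GC and length correction (0.0824). Blvrb was also higher (0.61 ± 0.16, limma adjusted p = 0.0216). Blvrb was lost without TLR9KO replicate 2 (0.51, limma adjusted p = 0.0635), TLR9KO replicate 4 (0.0527), STAT3KO replicate 1 (0.0562) or STAT3KO replicate 2 (0.0565), and under the correction for GC and length (0.0776). Ferritin genes have processed copies in the genome, and how reads with several matches were handled is not given in the sources used here.

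Antioxidant enzymes that are not chiefly known as NRF2 targets were counted from a list of 19, all tested. The list also holds Txnip, an inhibitor of thioredoxin and not an antioxidant enzyme, which is among the genes counted as higher in both STAT3KO comparisons. In STAT3KO minus WT 7 rose and 0 fell, and the share called, 36.8%, was below the 44% of all tested genes (median 0.23 beside 0.095). Sod1, the cytosolic superoxide dismutase, rose from 75.6 ± 6.97 to 162.1 ± 11.6 RPKM (1.09 ± 0.11, limma adjusted p = 3.8e-05), while Sod2 did not pass. The ratio of Sod2 to Sod1 was 0.211 to 0.296 in WT, 0.274 to 0.416 in TLR9KO and 0.106 to 0.127 in STAT3KO. Hmox2, the constitutive heme oxygenase (0.60 ± 0.11), the methionine sulfoxide reductase Msra (0.57 ± 0.09) and the thioredoxin inhibitor Txnip (0.68 ± 0.16) rose as well, and Hmox2 was 0.33 when corrected for GC and length (limma adjusted p = 0.0238). In TLR9KO minus WT 0 of 19 passed by limma beside 30.6% of all tested genes, and 1 had an unadjusted p under 0.05. In STAT3KO minus TLR9KO 6 were higher and 0 lower, 31.6% beside 22.8% of all tested genes, led by Sod1 (1.05 ± 0.10), Msra (0.82 ± 0.08), the glutathione synthetase Gss (0.57 ± 0.11) and the lipid peroxidase Gpx4 (0.51 ± 0.12), where Gpx4 was lost with the GC and length correction (0.24, limma adjusted p = 0.114).

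**Figure D4:**
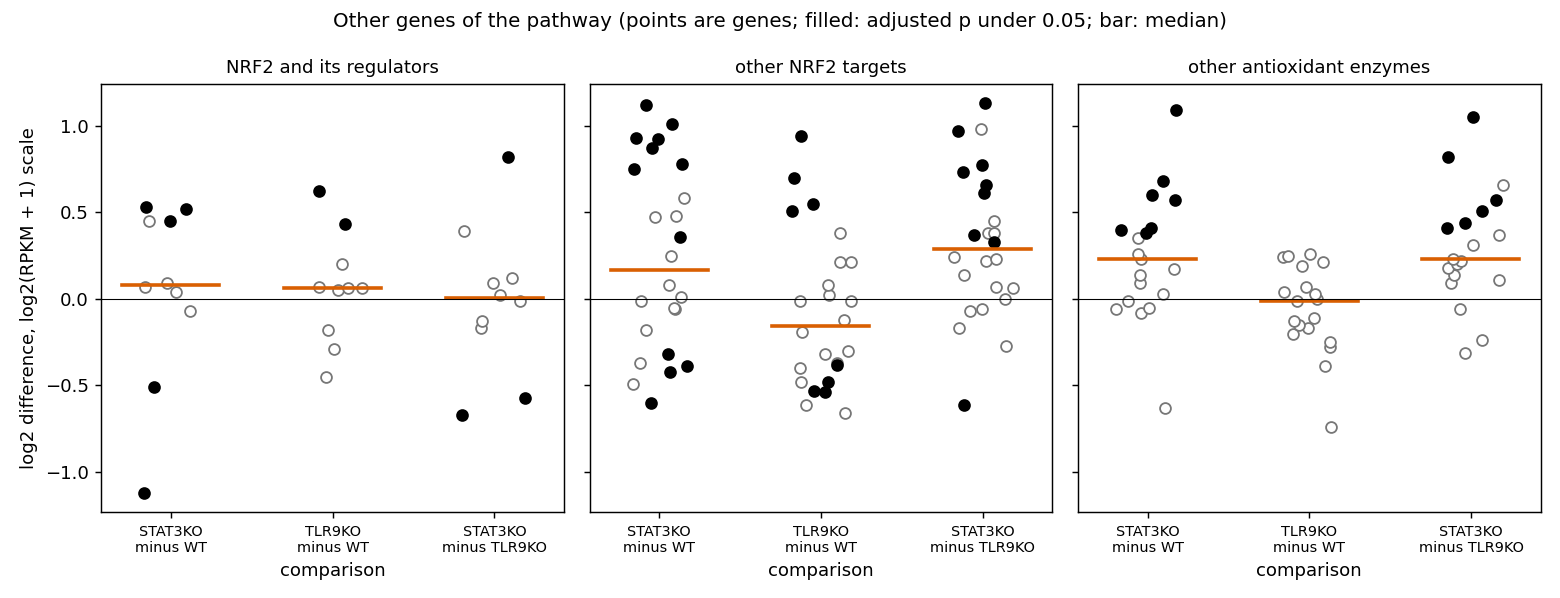
Log2 differences (y axis, log2(RPKM + 1) scale) of 10 NRF2 regulators, 24 other NRF2 targets and 19 other antioxidant enzymes in the 3 comparisons; points are genes, filled where the adjusted p is under 0.05, and bars are list medians. In the list of other antioxidant enzymes, which includes the thioredoxin inhibitor Txnip, 7, 0 and 6 points are filled, all of them above 0.

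The ratio of Prdx1 to Srxn1, the enzyme that restores it, was 8.13 to 8.70 in WT, 13.7 to 23.0 in TLR9KO and 9.13 to 12.5 in STAT3KO. The ranges of the 3 groups did not overlap, and the 3 WT libraries lay close together although both genes varied among them. This ratio was not corrected for GC content and length, and how often other gene pairs separate the groups was not counted. The ratio of Txnrd1 to Gsr overlapped between the groups, at 1.7 to 4.03 in WT, 2.11 to 4.29 in TLR9KO and 0.952 to 2.36 in STAT3KO.

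The genes most like each member were sought among the 7350 genes whose mean reached 5 RPKM, by Pearson correlation of log2(RPKM + 1) over the 11 libraries, as a description in which group differences and shared library differences both count. Hmox1 was closest to Sqstm1 (0.977), Srxn1 to Wsb2 (0.955) and Gclm to the iron exporter gene Slc40a1 (0.979). Gclc was closest to Bin1 (0.957), Gsr to Bcl2l1 (0.966), Cat to Actr8 (0.97), Prdx1 to Gabarapl2 (0.938), Txnrd1 to Ctsl (0.93), Sod2 to C1ra (0.93) and Nqo1 to Gabarapl1 (0.915). No gene of the list was the closest match of another, but some pairs within the list came near. Gclc and Gclm correlated at 0.96, Hmox1 and Srxn1 at 0.94 and Hmox1 and Gsr at 0.93. Sod2 correlated negatively with every other gene of the list, from -0.12 (Prdx1) to -0.75 (Srxn1).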

How the data were processed

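RNA of 11 libraries was deposited by the authors as 1 RPKM value per gene symbol, per the file headers, apart from TLR9KO replicate 4, whose header names no unit and whose values have the range and steps of the others. Build mm9 and the tools TopHat 1.3.1, Bowtie 0.12.7, CASAVA 1.7 and Partek come from the submitters' processing notes; annotation and denominator were not given in the sources used here. From these values log2(RPKM + 1) was computed for the 10557 genes whose mean reached 1 RPKM, and 3 group means were fitted to the 11 libraries with limma 3.58.1 (eBayes with trend, R 4.3.3). Tests were two-sided, Benjamini-Hochberg adjusted over all tested genes, with a threshold of 0.05. The fit was tested on simulated data. No scaling was added; RPKM are not counts, so no count model was used. Depth was found from the share of microRNA values (0.1 to 2 RPKM) within 0.15 of whole reads. The smallest depth within 10 percentage points of the best share was the start, and the depth with the highest share close to it was taken. It came to 30000000 (WT replicate 1) to 53450000 reads (STAT3KO replicate 1). The share at the depth taken was 72.7% in STAT3KO replicate 3 and 83.3 to 97.1% in the other libraries.

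Members and lists were chosen with earlier results of these data known. Genes named are the 10 members, Stat3, Tlr9, Nfe2l2, Keap1 and Bach1, up to 4 genes with the smallest p per other pathway list and comparison, and the closest gene by correlation. Itgam (a check of the cells) and Gpx2 (under the filter) are named besides. From the marker lists Itgax, Lyz2, Cd68, Tfrc, Mmp8, S100a8, S100a9, Csf3r and Retnlg are named, chosen after their values were seen. Alternatives were 2 pseudocounts, 2 filters, median-ratio scaling, a lowess correction for GC content and length of the longest GENCODE M21 transcript (98.8% of tested genes matched), array weights, fits of 2 groups, replicate blocks and each library left out. Python 3.11.15, pandas 2.3.3, numpy 2.4.6 and matplotlib 3.10.9 were used.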

Additional observations from a re-analysis of the deposited data

How the results depend on the processing

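The calls of Gclm, Gclc and Cat in STAT3KO minus WT, and those of Hmox1, Gclm, Gclc, Srxn1 and Cat in STAT3KO minus TLR9KO, held under each of the 21 alternatives. The count of called genes of the list in TLR9KO minus WT, 0 as reported, was 1 with median-ratio scaling, 4 with array weights (1 higher, 3 lower) and 0 to 2 with a library left out. For STAT3KO minus WT it was 4 to 6 and for STAT3KO minus TLR9KO 5 to 7 with a library left out, and in the latter all 9 were called with array weights. Over all genes, TLR9KO minus WT gave 1751 calls with the GC and length correction and 1989 to 3595 with a library left out, the lowest without WT replicate 1. STAT3KO minus TLR9KO gave 3807 with array weights and 1581 to 2709 with a library left out, the lowest without TLR9KO replicate 4. Over all tested genes with a matched transcript, the log2 difference correlated with GC content at -0.552 (Spearman) in TLR9KO minus WT. It was -0.244 in STAT3KO minus WT and 0.299 in STAT3KO minus TLR9KO. With transcript length the values were -0.157, -0.296 and -0.256 in the same order. The cause of these changes was not tested.

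The main fit did not pair libraries by replicate number. Of 11 libraries 2 correlated best with their own number in another group, and same-numbered libraries correlated at -0.291 to 0.492. With 3 or 4 such pairs per comparison, these values cannot decide whether the numbers pair the libraries. With the replicate block 4, 1 and 6 genes of the list were called for STAT3KO against WT, TLR9KO against WT and the knockouts against each other, beside 4074, 2662 and 1879 of all genes, and with the block and the GC and length correction TLR9KO minus WT had 1163 calls.

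Signs changed only for differences that did not pass. In STAT3KO minus WT, with median-ratio scaling Txnrd1 was -0.02 and Nfe2l2 -0.04. With the GC and length correction Nfe2l2 was -0.13 and Keap1 0.02 (-0.16 and 0.04 with the replicate block as well). With a library left out Txnrd1 ran from -0.02 to 0.16, Sod2 from -0.19 to 0.01 and Nfe2l2 from -0.09 to 0.34. In TLR9KO minus WT, Gclm was -0.03 with median-ratio scaling, -0.22 with array weights, -0.23 with the correction and -0.21 with block and correction. There Prdx1 was -0.03 with the correction and -0.02 with the block added, and Keap1 0.03 and 0.05. With a library left out Gclm ran from -0.25 to 0.23 and Bach1 from -0.09 to 0.29. In STAT3KO minus TLR9KO Keap1 was -0.01 with the correction, with and without the block. All values here are log2 differences. With block and correction together Rbx1 (0.23) and Blvra (0.30) lost their calls in STAT3KO minus WT, and Cbr1 (0.55) and Tkt (-0.41) in TLR9KO minus WT. Depth limits Nqo1 most, at 26 to 105 reads per library.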
